A study of Mus musculus with 3 samples.

Results

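DNA replication genes are described here in blood progenitors of the mouse bone marrow, as 41 genes named by symbol out of 27998 in the gene list of 3 single-cell libraries. All 41 were in the gene list of each library and in the gene annotation, and all 41 reached a mean of 5 CPM over the libraries, the minimum used for every gene, where CPM are UMIs scaled to a library total of 1000000. The mCherry library held reporter-positive cells and the non_mCherry library reporter-negative cells of 1 C57BL/6 mouse, which carried Mx1-Cre and a heterozygous, conditional Runx1-Runx1t1 knock-in followed by the mCherry reporter, and which was induced with poly(I:C). Runx1-Runx1t1 is the mouse form of AML1-ETO, a fusion protein of acute myeloid leukemia. A wild-type C57BL/6 mouse gave the control library, and whether it received poly(I:C) or carried Cre is not given in the sources used here. Marrow cells of all 3 groups were sorted as lineage-negative, c-kit-positive and DAPI-negative. Mx1-Cre is switched on by interferon and so recombines in many blood cells and in other interferon-responsive cells, not in a chosen stage. Each group was 1 library, so no difference below has a replicate check, no test or p-value was computed, and all intervals are 95% and cover counting error only. The group, the library and, against control, the mouse cannot be told apart.

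Before a cell divides, it copies its genome from many origins. Origins are licensed when the origin recognition complex with Cdc6 and Cdt1 loads the ring of Mcm proteins, which Cdc45 and the GINS complex later turn into the active helicase. Primase and polymerases then copy the strands, the sliding clamp Pcna and its loader hold the polymerases on DNA, and Fen1 and Lig1 join the pieces of the lagging strand. Ribonucleotide reductase, thymidylate synthase, thymidine kinase and dUTPase supply and protect the nucleotide pool. Many of these genes are transcribed at the start of S phase under E2F factors. Blood stem cells are mostly quiescent, while committed progenitors divide often, so these genes differ widely within marrow.

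The analysis used 10150 mCherry, 7850 non_mCherry and 8857 control cells, which held 92048702, 86852479 and 143339512 UMIs. The median cell had 8173.5 UMIs in mCherry, 9241.5 in non_mCherry and 15416 in control. The median mitochondrial share was 2.50% of UMIs in mCherry and 1.87% in each of the other libraries. Runx1t1, the partner joined to Runx1 by the knock-in, stood at 8.47 CPM in mCherry (780 UMIs), 0.311 CPM in non_mCherry (27 UMIs) and 0.216 CPM in control (31 UMIs). Kit, the sorted surface receptor, was detected at 269 CPM in mCherry, 56.6 CPM in non_mCherry and 66.8 CPM in control. The libraries shared 42 cell barcodes between mCherry and control, 34 between mCherry and non_mCherry and 24 between non_mCherry and control.

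Every replication gene was lower in the mCherry library than in the control library and than in the non_mCherry library. Together the 41 genes took 1563 CPM in mCherry, 4413 CPM in non_mCherry and 4529 CPM in control, which was 2.90-fold lower in mCherry than in control (quotient 0.345, interval 0.343 to 0.347) and 2.82-fold lower than in non_mCherry (0.354, 0.352 to 0.356). Of the 41, 33 were at least 2-fold lower in mCherry than in control, beside 11.8% of the 9314 genes tested, and 0 were at least 2-fold higher, beside 17.8%. Against non_mCherry, 33 were at least 2-fold lower, beside 10.8% of all genes, and 0 at least 2-fold higher, beside 16.8%. The median log2 fold of the members was -1.57 over control and -1.48 over non_mCherry, where the median over all tested genes was 0.14 and 0.16. With median-of-ratios scaling in place of CPM, 37 members were at least 2-fold lower than in control and 36 than in non_mCherry. Over all tested genes 1518 and 1391 were at least 2-fold lower with that scaling, where with CPM 1097 and 1009 were. Among only the genes past 2-fold in either direction, the lower ones made up 55.0% and 54.5%, where with CPM they made up 39.8% and 39.2%. These comparisons share the mCherry library and are not independent of each other. With sums over cells, fewer cells in S phase and less of a transcript per cell give the same lower value, and the per-cell values further on describe the cells directly.

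**Figure D1:**
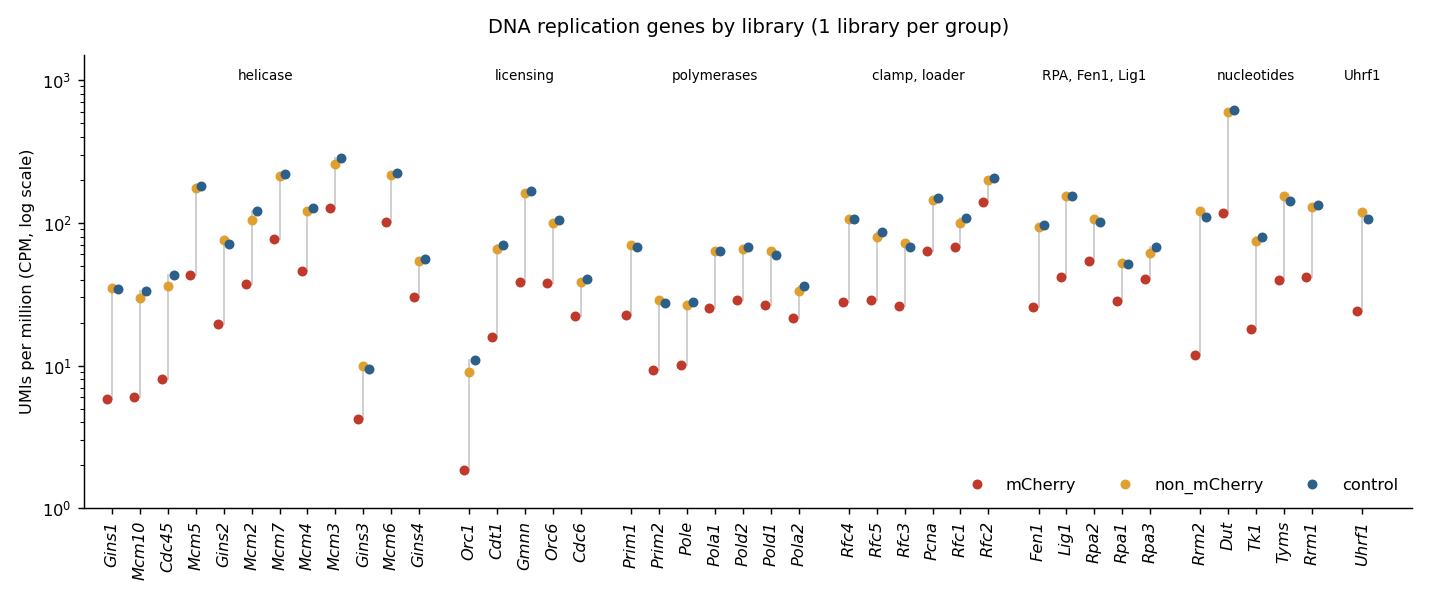
CPM on a log scale (vertical axis) of each of the 41 replication genes (horizontal axis, grouped by role and ordered within a role by fold), with 1 point per library for mCherry (red), non_mCherry (orange) and control (blue). For all 41 genes the mCherry point is the lowest, while non_mCherry and control nearly coincide, as for Rrm2 at 11.9 CPM in mCherry, 122 CPM in non_mCherry and 110 CPM in control.

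Among the helicase genes, Mcm3, Mcm6 and Mcm7 are subunits of the ring that unwinds DNA. Mcm3 stood at 128 CPM in mCherry, 257 CPM in non_mCherry and 285 CPM in control, and Mcm6 at 101 CPM in mCherry, 215 CPM in non_mCherry and 225 CPM in control. Both were 2.23-fold lower in mCherry than in control. Mcm7 stood at 77.3 CPM in mCherry, 214 CPM in non_mCherry and 219 CPM in control, 2.83-fold lower in mCherry than in control. Of the genes that activate the loaded ring, 3 were among the 5 lowest of all members by fold. Gins1, a GINS subunit, had 5.84 CPM in mCherry, 35.2 CPM in non_mCherry and 34.3 CPM in control (quotient mCherry over control 0.170, 0.155 to 0.186). Mcm10, which helps to activate the helicase, had 6.05 CPM in mCherry, 29.6 CPM in non_mCherry and 33.5 CPM in control (0.180, 0.165 to 0.197). Cdc45, the partner of Mcm and GINS in the moving helicase, had 8.07 CPM in mCherry, 35.9 CPM in non_mCherry and 42.9 CPM in control (0.188, 0.174 to 0.203). In these 3 genes mCherry was 5.88-fold, 5.54-fold and 5.31-fold lower than control, and each mCherry value was clear of both others. Of the 12 helicase genes 11 were at least 2-fold lower in mCherry than in control, with a median log2 fold of -1.59. The GINS subunits differed among themselves, with log2 folds over control of -2.55 for Gins1, -1.86 for Gins2, -1.16 for Gins3 and -0.88 for Gins4. Gins4 was the exception to 2-fold, at 30.1 CPM in mCherry, 53.6 CPM in non_mCherry and 55.6 CPM in control.

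Origin licensing genes had a median log2 fold of -2.10 over control, and 4 of 5 were at least 2-fold lower in mCherry. Orc1, the subunit of the origin recognition complex whose level cycles in mammalian cells, had 1.85 CPM in mCherry (170 UMIs), 9.0 CPM in non_mCherry (782 UMIs) and 10.9 CPM in control (1563 UMIs), 5.90-fold lower in mCherry than in control. Cdt1, which loads the Mcm ring, had 15.8 CPM in mCherry, 66.0 CPM in non_mCherry and 70.0 CPM in control. Cdt1 overlaps Gm20388 on the same strand, so some of its reads may be counted elsewhere. Gmnn, the inhibitor of Cdt1 that blocks a second round of licensing, was 4.30-fold lower at 38.6 CPM in mCherry, against 163 CPM in non_mCherry and 166 CPM in control. The loader and its inhibitor were therefore both low in mCherry. Orc6 stood at 37.96 CPM in mCherry, 99.4 CPM in non_mCherry and 105 CPM in control. Cdc6, the other loading factor, differed least of the 5, at 22.1 CPM in mCherry, 38.6 CPM in non_mCherry and 40.5 CPM in control (1.84-fold lower than in control).

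The 7 polymerase and primase genes lay between a log2 fold of -1.59 (Prim1) and -0.74 (Pola2) over control, and 6 were at least 2-fold lower in mCherry. Prim1, the catalytic primase subunit, had 22.5 CPM in mCherry, 70.0 CPM in non_mCherry and 67.8 CPM in control. Pold2, an accessory subunit of polymerase delta, had 28.6, 65.3 and 67.4 CPM in mCherry, non_mCherry and control. Pola1, the catalytic subunit of polymerase alpha, had 25.3 CPM in mCherry, 63.3 CPM in non_mCherry and 63.0 CPM in control. Pola2, the partner of Pola1 in the same enzyme, was closer between libraries, at 21.5 CPM in mCherry, 33.5 CPM in non_mCherry and 35.9 CPM in control (quotient mCherry over control 0.598, 0.567 to 0.630). The intervals of these quotients for Pola1 (0.384 to 0.420) and Pola2 did not overlap, so subunits of 1 enzyme differed in fold beyond counting error.

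The clamp and the subunits of its loader differed widely in fold. Pcna, the clamp, stood at 63.3 CPM in mCherry, 143 CPM in non_mCherry and 150 CPM in control, 2.37-fold lower in mCherry than in control. Rfc2 had 140 CPM in mCherry, 198 CPM in non_mCherry and 206 CPM in control, the highest fold of all 41 members at a log2 of -0.55. Rfc1, the large subunit of the loader, had 67.4 CPM in mCherry, 99.7 CPM in non_mCherry and 108 CPM in control (log2 -0.68 over control). The other loader subunits lay lower, at -1.39 for Rfc3, -1.57 for Rfc5 and -1.95 for Rfc4, which had 27.7 CPM in mCherry, 105 CPM in non_mCherry and 107 CPM in control. Thus 4 of 6 genes of this role were at least 2-fold lower in mCherry than in control.

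RPA coats single-stranded DNA in replication and in repair, and all 3 of its genes were under the 2-fold threshold against control. Rpa1 had 28.3 CPM in mCherry, 52.1 CPM in non_mCherry and 51.8 CPM in control, and Rpa2 had 53.6 CPM in mCherry, 107 CPM in non_mCherry and 101 CPM in control. Rpa3 had 40.6 CPM in mCherry, 61.7 CPM in non_mCherry and 68.0 CPM in control. Rpa1, Rpa2 and Rpa3 were 1.83-fold, 1.89-fold and 1.68-fold lower in mCherry than in control. Fen1, which cuts flaps between lagging-strand pieces, was 3.75-fold lower, at 25.7 CPM in mCherry, 92.9 CPM in non_mCherry and 96.6 CPM in control. Lig1, the ligase that seals those pieces, was 3.74-fold lower, at 41.4 CPM in mCherry, 153 CPM in non_mCherry and 155 CPM in control. Fen1 and Lig1, which act one after the other, thus had nearly the same fold.

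Nucleotide supply was the role with the lowest summed level relative to control, 4.73-fold lower in mCherry, against 2.05-fold lower for clamp and loader. All 5 of its genes were at least 2-fold lower. Rrm2, the small subunit of ribonucleotide reductase that limits its activity in S phase, had 11.9 CPM in mCherry, 122 CPM in non_mCherry and 110 CPM in control. It was the lowest of the 41 by fold, 9.31-fold lower than in control (quotient 0.107, 0.101 to 0.114) and 10.3-fold lower than in non_mCherry. Rrm1, the large subunit of the same enzyme, was 3.19-fold lower than in control, at 41.4 CPM in mCherry, 130 CPM in non_mCherry and 132 CPM in control. Dut, the dUTPase that keeps uracil out of DNA, had 118 CPM in mCherry, 595 CPM in non_mCherry and 616 CPM in control, 5.24-fold lower in mCherry than in control. Tyms, which makes thymidylate, had 39.9 CPM in mCherry, 154 CPM in non_mCherry and 143 CPM in control. Tk1, the cytosolic thymidine kinase, had 17.9 CPM in mCherry, 74.8 CPM in non_mCherry and 80.0 CPM in control. Uhrf1, which keeps DNA methylation through replication, was 4.38-fold lower at 24.1 CPM in mCherry, against 119 CPM in non_mCherry and 106 CPM in control.

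**Figure D2:**
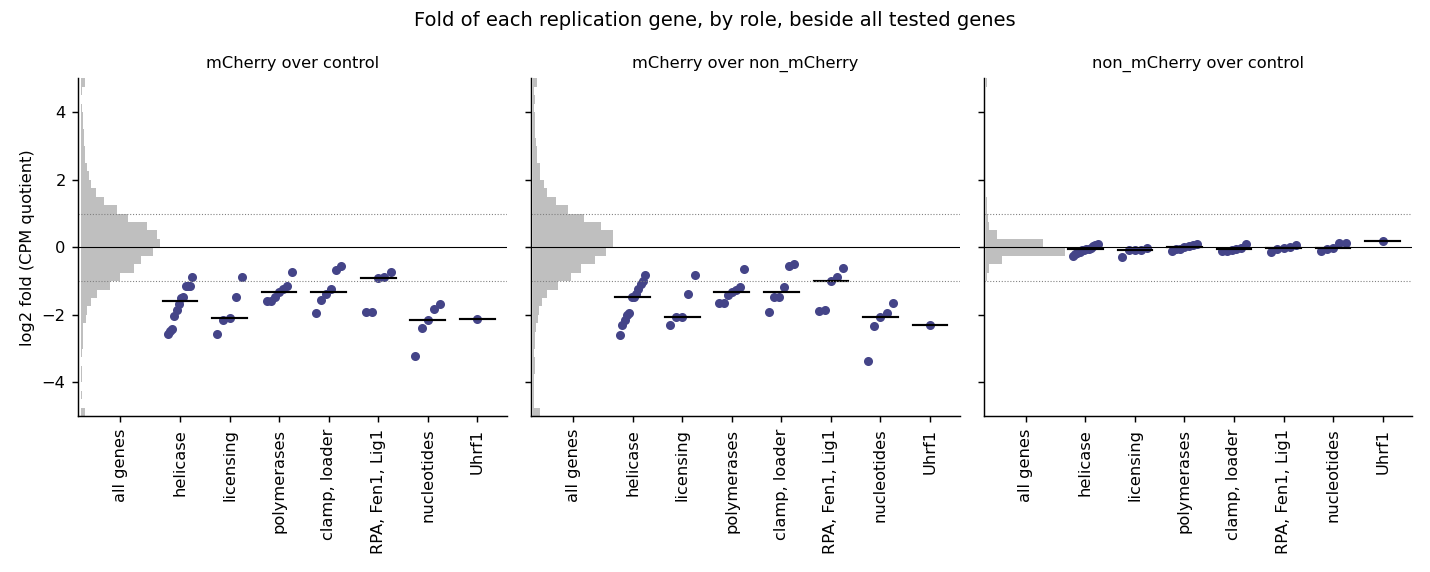
Log2 fold (quotient of CPM, vertical axis) of each replication gene by role (points, with the role's median as a line) in the 3 pairs of libraries, beside a histogram of all 9314 tested genes in grey, scaled to its tallest bar, with values past 5 in either direction put in the end bars. Dotted lines mark 2-fold. In mCherry over control 33 of 41 points lie at or below the lower dotted line, and in non_mCherry over control 0 do.

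Non_mCherry cells came from the same mouse as mCherry cells, and their replication genes were close to control. Of 41 members 0 were at least 2-fold lower in non_mCherry than in control, beside 0.387% of all tested genes, and 0 at least 2-fold higher, beside 1.85%. The log2 folds ran from -0.28 for Orc1 to 0.17 for Uhrf1, with a median of -0.05. The members below control numbered 28 of 41, beside 5246 of the 9314 tested genes. All 5 licensing genes were among the 28, though for Gmnn (0.982, 0.962 to 1.003) the interval included a quotient of 1. Those above numbered 13 and included Rrm2 (1.10, 1.08 to 1.13), Tyms (1.08, 1.06 to 1.11) and Uhrf1 (1.13, 1.10 to 1.16). Cdc45 (0.838, 0.802 to 0.875) and Mcm10 (0.883, 0.842 to 0.927) were among the lowest. B lineage cells differed between these libraries. By marker genes they made up 26.2% of non_mCherry cells and 0.440% of control cells, and they carried 18.6% of replication gene UMIs and 14.3% of all UMIs in non_mCherry. Without them, 40 of 41 members were lower in non_mCherry than in control, and the quotient of the sums was 0.926 in place of 0.974. The share of all genes that were lower without them was not computed.

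Promoter sequences are shown because all members were lower in mCherry. They are the window of 250 bases before and 50 bases after the gene start, from RefSeq on GRCm38.p6, the build also called mm10, and 33 members had a window in the table. Not in it were Mcm4, Rfc2, Prim2, Pole, Gins1, Gins2, Gins4 and Gmnn. E2F factors bind words of the form TTTNNCGC, here searched with C or G at each N and on both strands, and the words may overlap. Of the 33 members 13 held at least 1 such word, which is 39.4%, while 2.60% of all 27025 genes in the table did. The 13 were Mcm3, Mcm5, Mcm6, Mcm7, Gins3, Orc1, Cdc6, Cdt1, Pola1, Pold1, Rfc3, Lig1 and Uhrf1. The CCAAT box, also searched on both strands, was in 22 members (66.7%) and in 41.1% of all genes. Members with an E2F word had a median log2 fold of -1.39 over control and a range of -2.56 to -0.88, and the 20 without had a median of -1.63 and a range of -3.22 to -0.68, so the ranges overlapped widely. Shown are the member with the lowest fold and a window in each of 4 roles (Mcm10, Orc1, Rfc4 and Rrm2), the one with the highest fold and a window (Rfc1), and Mcm6, which held the most E2F words and was picked after that count was seen. Capitals mark E2F words and CCAAT boxes, on either strand.
Mcm10 (chr2:5012742-5013041, minus strand): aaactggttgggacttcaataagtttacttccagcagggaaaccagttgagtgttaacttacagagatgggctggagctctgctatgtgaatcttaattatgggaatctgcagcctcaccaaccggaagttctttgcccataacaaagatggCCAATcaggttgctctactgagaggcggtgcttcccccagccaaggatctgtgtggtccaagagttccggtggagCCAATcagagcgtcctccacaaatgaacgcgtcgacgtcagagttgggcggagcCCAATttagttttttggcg
Orc1 (chr4:108579204-108579503, plus strand): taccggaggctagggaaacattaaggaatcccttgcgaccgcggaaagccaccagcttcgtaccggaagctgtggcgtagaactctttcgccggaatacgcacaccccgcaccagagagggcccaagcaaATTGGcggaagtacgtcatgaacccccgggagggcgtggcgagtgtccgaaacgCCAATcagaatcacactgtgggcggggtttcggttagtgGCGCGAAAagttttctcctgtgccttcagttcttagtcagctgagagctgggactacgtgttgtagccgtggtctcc
Rfc4 (chr16:23127681-23127980, minus strand): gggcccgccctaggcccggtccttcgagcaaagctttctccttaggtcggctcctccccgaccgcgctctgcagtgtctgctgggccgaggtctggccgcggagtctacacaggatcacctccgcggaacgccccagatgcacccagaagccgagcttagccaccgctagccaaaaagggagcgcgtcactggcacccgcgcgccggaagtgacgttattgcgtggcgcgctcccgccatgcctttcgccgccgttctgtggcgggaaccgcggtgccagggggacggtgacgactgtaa
Rrm2 (chr12:24708004-24708303, plus strand): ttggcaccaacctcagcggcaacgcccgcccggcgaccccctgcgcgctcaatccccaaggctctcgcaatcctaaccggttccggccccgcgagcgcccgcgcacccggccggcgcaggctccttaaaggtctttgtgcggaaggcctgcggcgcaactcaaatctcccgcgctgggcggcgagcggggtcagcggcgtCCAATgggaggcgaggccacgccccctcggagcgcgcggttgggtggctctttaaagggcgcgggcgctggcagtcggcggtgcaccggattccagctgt
Rfc1 (chr5:65335590-65335889, minus strand): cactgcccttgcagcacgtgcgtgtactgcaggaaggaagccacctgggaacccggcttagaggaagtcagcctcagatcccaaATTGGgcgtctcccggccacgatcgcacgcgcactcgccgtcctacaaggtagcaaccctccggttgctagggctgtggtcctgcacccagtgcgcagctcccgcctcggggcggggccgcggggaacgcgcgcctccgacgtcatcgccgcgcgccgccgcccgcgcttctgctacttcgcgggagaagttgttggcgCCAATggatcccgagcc
Mcm6 (chr1:128359656-128359955, minus strand): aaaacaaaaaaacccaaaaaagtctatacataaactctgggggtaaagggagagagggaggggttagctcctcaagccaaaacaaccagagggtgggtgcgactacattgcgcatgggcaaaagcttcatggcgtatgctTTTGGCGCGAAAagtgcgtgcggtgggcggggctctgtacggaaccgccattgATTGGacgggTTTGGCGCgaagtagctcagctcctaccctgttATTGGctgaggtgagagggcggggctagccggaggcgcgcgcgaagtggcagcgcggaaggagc
The Orc1 window held 1 E2F word, which began 27 bases before the start, and 2 CCAAT boxes. The Mcm6 window held 3 E2F words, beginning 110, 106 and 47 bases before the start, of which the first pair overlap, and 2 CCAAT boxes. Mcm10 held 3 CCAAT boxes, Rfc1 held 2 and Rrm2 held 1, with 0 E2F words in each. Rfc4 held neither. A match is a description of the letters and not a bound site.

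Replication genes were next followed within cells of like marker expression. Each cell was given the class whose marker list it scored highest on, if that score was clear, by a rule set after the data were seen. A class cut from such a score is a range of cells and not a type, and 21.6% of mCherry, 9.18% of non_mCherry and 12.5% of control cells lay near the cut. In control, summed replication genes ran from 2963 CPM in the T, NK and innate lymphoid class to 5340 CPM in the erythroid class. The erythroid class was highest for 22 of 41 members in control, the basophil class lowest for 15 and the T, NK and innate lymphoid class lowest for 12. Dut, for example, stood at 885 CPM in control erythroid cells and 334 CPM in control T, NK and innate lymphoid cells. In non_mCherry the B lineage class was highest at 5736 CPM, with Rrm2 at 244 CPM. In mCherry, the classes with at least 50 cells ran from 1014 to 1712 CPM, so every mCherry class of that size was below every such control class. Smaller classes need not follow this. The 14 mCherry cells of the B lineage class summed to 5032 CPM, against 6137 CPM in 39 control cells of that class.

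**Figure D3:**
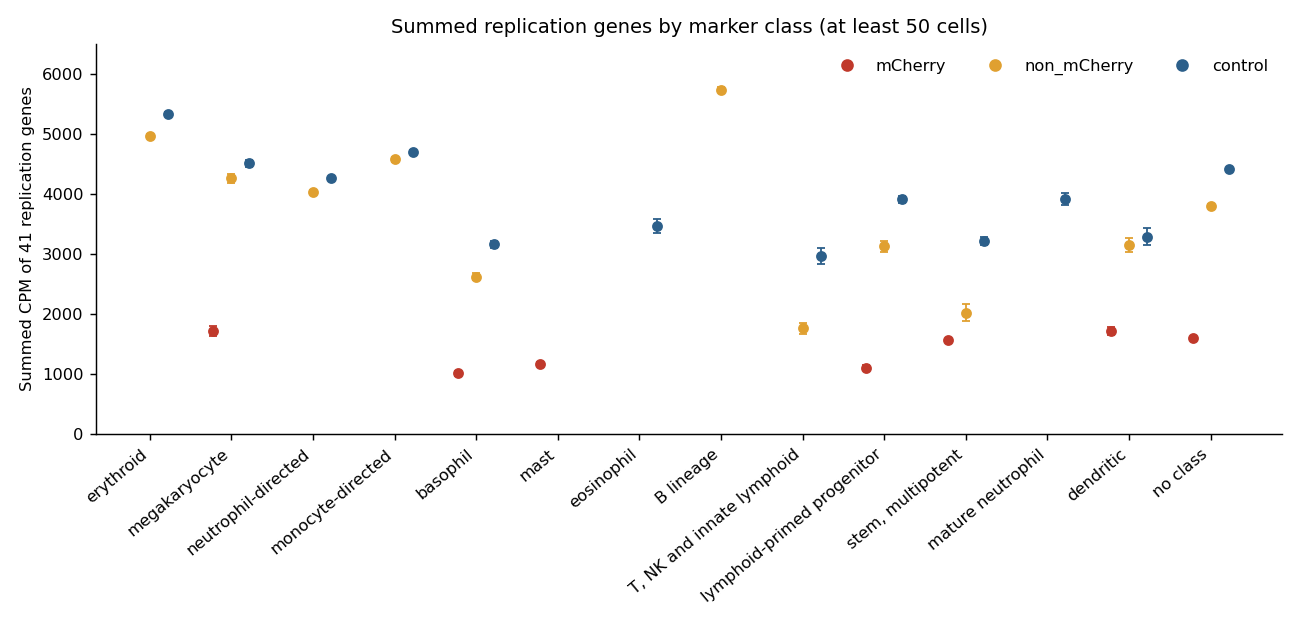
Summed CPM of the 41 replication genes (vertical axis) in each marker class with at least 50 cells (horizontal axis) for mCherry (red), non_mCherry (orange) and control (blue), with exact 95% Poisson intervals. The mCherry points lie between 1014 and 1712 CPM in every class shown, and control points between 2963 and 5340 CPM.

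Most mCherry cells had no class (58.7%, against 19.4% in non_mCherry and 25.9% in control), and 26.2% were in the stem and multipotent progenitor class, against 0.777% in non_mCherry and 3.17% in control. The marker lists that place the cells were mixed in mCherry. In the megakaryocyte class 4 of 10 markers were at least 2-fold lower in mCherry than in control, 2 were higher, and 1 had under 3 UMIs in both. Pf4, a platelet gene, was at 7.66 CPM in mCherry, 1162 CPM in non_mCherry and 2400 CPM in control, but Gp1ba, another, was at 46.9 CPM in mCherry, 9.08 CPM in non_mCherry and 10.4 CPM in control, and Itga2b at 285 CPM in mCherry, 269 CPM in non_mCherry and 293 CPM in control. In the basophil class 4 of 8 were at least 2-fold lower and 1 was higher. Prss34, a basophil protease, was at 2.58 CPM in mCherry, 4937 CPM in non_mCherry and 6796 CPM in control, while Ms4a2, a subunit of the IgE receptor, was at 543 CPM in mCherry, 625 CPM in non_mCherry and 623 CPM in control. In the lymphoid-primed class 4 of 8 markers and in the dendritic class 7 of 8 were at least 2-fold lower, with Siglech and Itgax at 0 UMIs in the dendritic class of mCherry. In the stem and multipotent progenitor class 2 of 10 markers were at least 2-fold lower in mCherry than in control and 3 were higher. Hlf, a stem cell factor, was at 438 CPM in mCherry, 279 CPM in non_mCherry and 307 CPM in control, but Mecom, another, was at 15.9 CPM in mCherry, 103 CPM in non_mCherry and 108 CPM in control. The part of these marker differences in the replication values was not tested. In the mast class of mCherry cells replication genes summed to 1169 CPM, and no such class of 50 cells was present in non_mCherry or control. Its markers summed to 26331 CPM, most of it from the proteases Cpa3 at 18089 CPM and Cma1 at 7134 CPM, with Hdc at 615 CPM, Mcpt4 at 373 CPM and Tpsb2 at 117 CPM. Tpsab1 had 3 UMIs there, Mrgprb2 had 6 and Mrgprb1 had 0.

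In the stem and multipotent progenitor class, replication genes summed to 1572 CPM in 2656 mCherry cells, 2019 CPM in 61 non_mCherry cells and 3221 CPM in 281 control cells. All 41 were below control in mCherry, with a summed quotient of 0.488 (0.477 to 0.4997). Of 39 members that reached the minimum in this class, 23 were at least 2-fold lower in mCherry than in control, beside 6.84% of all genes tested there. Against non_mCherry the difference was smaller, with a summed quotient of 0.779 (0.724 to 0.838). There 28 of 41 were below non_mCherry when counts under 3 were set to 3. Of these, Gins3 was below only through that floor, with 3.81 CPM in mCherry and 2.71 CPM (1 UMI) in non_mCherry. Of 39 members tested, 8 were at least 2-fold lower, beside 6.33% of all genes tested. Dut was at 118 CPM in mCherry, 252 CPM in non_mCherry and 361 CPM in control. Orc1 had 48 UMIs in mCherry, 3 in non_mCherry and 19 in control, a quotient mCherry over control of 0.263 with an interval of 0.151 to 0.473. For Rrm2 the difference from control was smaller here than over all cells, at 11.3 CPM in mCherry and 28.0 CPM in control. Against non_mCherry, at 5.42 CPM (2 UMIs), the Rrm2 quotient was 2.08 with an interval of 0.570 to 17.2. For Cdc6, Rpa3 and Gins3 the difference between mCherry and control was within counting error. Cdc6 was at 21.8, 18.97 and 21.9 CPM in mCherry, non_mCherry and control, and Rpa3 at 42.5, 37.9 and 44.2 CPM. Gins3 had 97 UMIs in mCherry, 1 in non_mCherry and 13 in control. The intervals of the quotient mCherry over control were 0.759 to 1.33 for Cdc6, 0.794 to 1.17 for Rpa3 and 0.433 to 1.51 for Gins3.

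Non_mCherry cells of the stem and multipotent progenitor class were also below control, with a summed quotient of 0.627 (0.581 to 0.676). There 12 of 40 members were at least 2-fold lower, beside 4.76% of all genes, on only 61 cells. The summed quotient of non_mCherry over control was 0.930 in the erythroid class, 0.945 in the megakaryocyte class, 0.945 in the neutrophil-directed class and 0.974 in the monocyte-directed class. It was 0.829 in the basophil class, 0.799 in the lymphoid-primed class, 0.593 in the T, NK and innate lymphoid class and 0.859 in cells of no class. In the dendritic class it was 0.956 with an interval of 0.902 to 1.01. In every class compared the non_mCherry sum was thus the lower, though in the dendritic class the interval included a quotient of 1.

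To compare cells at 1 depth, each cell was thinned to 4000 UMIs, which left out 337 mCherry, 1095 non_mCherry and 295 control cells with fewer. These were 3.32%, 13.9% and 3.33% of the cells. In the non_mCherry B lineage class, the highest there in replication genes, 1292 of 2055 cells were kept. Thinned non_mCherry medians and shares, here and below, thus hold fewer B lineage cells than the library. After thinning the median cell had 4 replication gene UMIs in mCherry, 16 in non_mCherry and 17 in control. Without thinning the medians were 8, 39 and 65. The control median was reached by 4.89% of mCherry cells (4.47% to 5.34%), 47.5% of non_mCherry cells and 50.4% of control cells. A cell at the 99th percentile had 30 UMIs in mCherry, 47 in non_mCherry and 37 in control, so a small set of mCherry cells reached levels common in the other libraries. Cells with 0 replication gene UMIs made up 2.52% of mCherry, 0.444% of non_mCherry and 0.269% of control cells. Cells without any such UMI were thus a small share of each library, and most mCherry cells held a few.

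**Figure D4:**
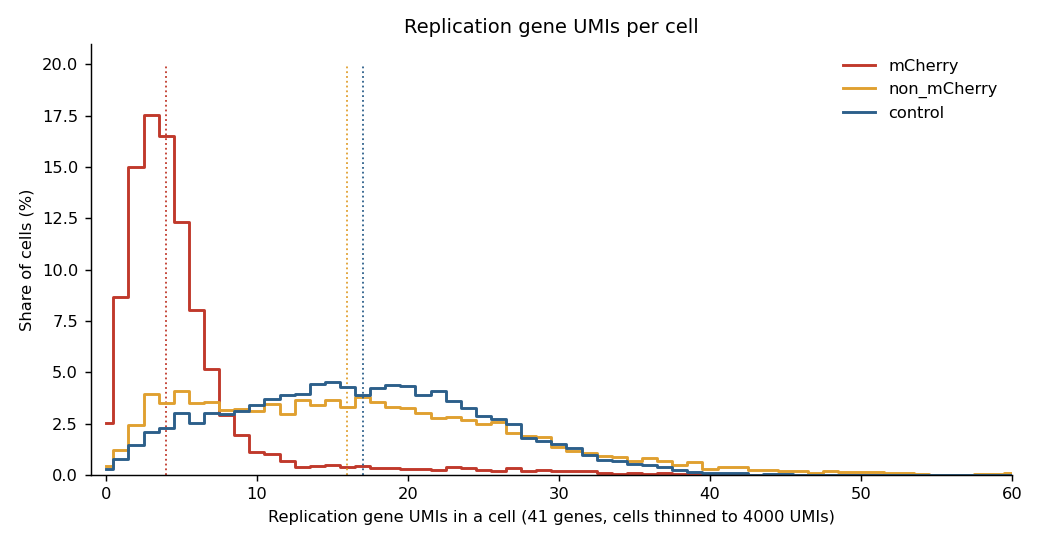
Share of cells (vertical axis, percent) by number of replication gene UMIs in a cell (horizontal axis, with 60 or more in the last bin), after thinning to 4000 UMIs, for mCherry (red), non_mCherry (orange) and control (blue). Dotted lines mark the medians of 4, 16 and 17 UMIs, and the mCherry curve peaks near its median with a thin tail to the right.

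The 480 mCherry cells at or above the control median were set beside the other 9333. Of the 480, 61.9% had at least 5 UMIs of 38 mitosis genes, which are not members, and of the others 7.51% did. Runx1t1 was at 5.03 CPM in the 480 (40 UMIs, 3.59 to 6.85) and at 8.86 CPM in the others (736 UMIs, 8.23 to 9.53). The 480 also held more UMIs per cell on average, and Runx1t1 UMIs per cell were close between the sets, so the CPM difference is relative to total RNA counts. By class, the 480 had 61.0% in no class and 29.8% in the stem and multipotent progenitor class, against 58.7% and 26.5% of all thinned mCherry cells. The mast class held 7 of them, of 496 thinned mast cells, the lymphoid-primed class 3 of 304 and the basophil class 1 of 294. Shares were higher in some classes of few mCherry cells, with 4 of 6 in the B lineage, 3 of 8 in the neutrophil-directed and 4 of 18 in the erythroid class. The megakaryocyte class held 9 of 120, the dendritic class 11 of 162, and the T, NK and innate lymphoid class 0 of 20.

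Cells with at least 5 mitosis gene UMIs after thinning made up 10.2% of mCherry, 51.1% of non_mCherry and 52.9% of control cells. In these cells replication genes summed to 3434 CPM in mCherry, 5093 CPM in non_mCherry and 4794 CPM in control, a quotient of 0.716 (0.710 to 0.723) for mCherry over control. The sums used all UMIs of these cells, so deeper cells weigh more in them. After thinning, the median cell of this set had 7 replication gene UMIs in mCherry, 20 in non_mCherry and 19 in control. The typical mCherry cell was thus further below control than the sums show. Of 41 members 4 were at least 2-fold lower in mCherry there, beside 6.4% of all genes tested in those cells, and 38 were below control. The 4 were Dut (log2 -1.28), Orc1 (-1.19), Rrm2 (-1.08) and Gins1 (-1.06). Rrm2 stood at 64.2 CPM in mCherry, 172 CPM in non_mCherry and 136 CPM in control in these cells. Pole, the catalytic subunit of polymerase epsilon, stood at 33.1 CPM in mCherry, 32.4 CPM in non_mCherry and 30.9 CPM in control, and Pola2 at 38.6, 37.9 and 37.0 CPM in mCherry, non_mCherry and control. Together with Gins3 these were the 3 members not below control, and each of their intervals included a quotient of 1.

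In cells with fewer than 5 mitosis gene UMIs the sums were 1222 CPM in mCherry, 3580 CPM in non_mCherry and 4114 CPM in control, a quotient of 0.297 for mCherry over control. Of 40 members tested 33 were at least 2-fold lower in mCherry, beside 10.1% of all genes. Rrm2 was at 2.22 CPM in mCherry, 49.2 CPM in non_mCherry and 69.0 CPM in control, a log2 fold of -4.96 over control. Mcm6 differed less, at 85.7 CPM in mCherry, 217 CPM in non_mCherry and 239 CPM in control. In the same cells Rrm2 and Mcm6 thus differed in fold, with quotients mCherry over control of 0.0321 (0.0274 to 0.0375) and 0.358 (0.348 to 0.369). Depth per cell, mitochondrial share and class makeup also differ between the libraries, and their part was not tested.

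**Figure D5:**
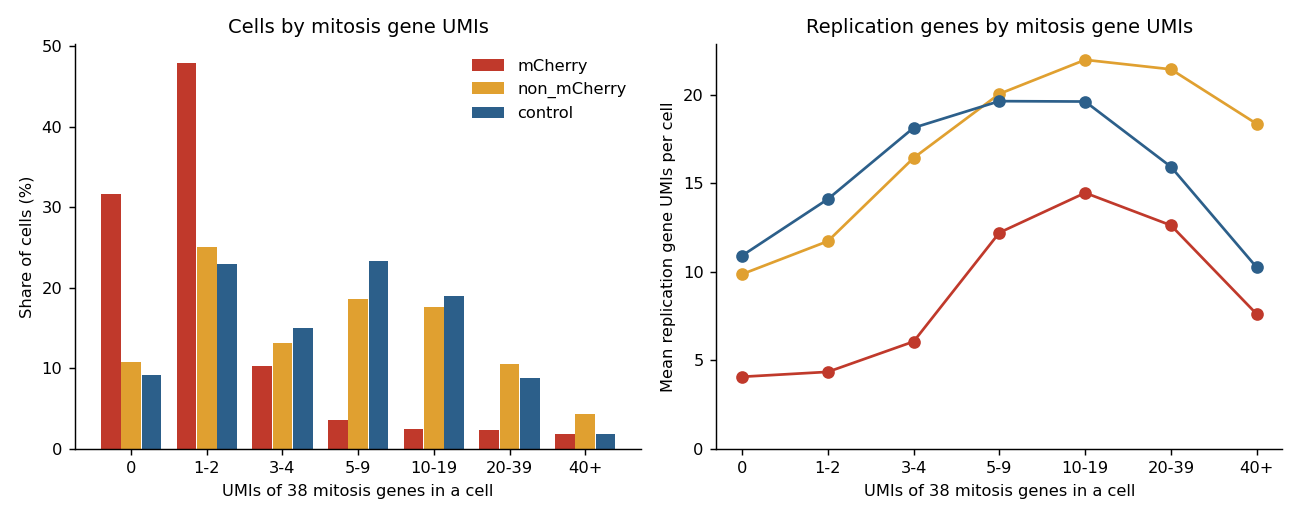
Left, share of cells (percent) by UMIs of 38 mitosis genes after thinning, for mCherry (red), non_mCherry (orange) and control (blue). Right, mean replication gene UMIs per cell in the same bins. The mCherry mean is below both others in each bin and highest at 14.5 UMIs for 10 to 19 mitosis UMIs, where non_mCherry has 21.99 and control 19.6. The medians of that bin, not drawn, are 8 UMIs in mCherry, 22 in non_mCherry and 19 in control.

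The wider pathway was taken from lists that do not hold the members. Of 40 other replication genes, 23 were at least 2-fold lower in mCherry than in control, beside 11.8% of all tested genes. At least 2-fold higher was 1, beside 17.8%, and the median log2 fold was -1.19. The lowest were Recql4, a helicase (1.05 CPM in mCherry, 7.27 CPM in non_mCherry and 7.23 CPM in control), 2810417H13Rik, which encodes a Pcna-associated factor (42.1 CPM in mCherry, 329 CPM in non_mCherry and 278 CPM in control), and Exo1, an exonuclease (6.26 CPM in mCherry, 24.6 CPM in non_mCherry and 31.4 CPM in control). Pold4, the small subunit of polymerase delta, was the higher one, at 130 CPM in mCherry, 87.8 CPM in non_mCherry and 60.2 CPM in control, while Pold1 and Pold2 of the same enzyme were lower. Orc4 (34.4 CPM in mCherry, 24.1 CPM in non_mCherry and 24.0 CPM in control) and Mcm9 (8.12 CPM in mCherry, 7.09 CPM in non_mCherry and 5.77 CPM in control) followed it, both under 2-fold.

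Of 30 other nucleotide supply genes, 19 were at least 2-fold lower in mCherry than in control, beside 11.8% of all tested genes. At least 2-fold higher was 1, beside 17.8%, and the median log2 fold was -1.18. Among the lowest were Mthfd2, a mitochondrial folate enzyme (7.37 CPM in mCherry, 49.6 CPM in non_mCherry and 51.6 CPM in control), and Mthfd1, its cytosolic relative in folate metabolism (20.6 CPM in mCherry, 79.5 CPM in non_mCherry and 86.4 CPM in control). The highest were genes known for nucleotide supply outside S phase. Tk2, the mitochondrial thymidine kinase, had 15.9 CPM in mCherry, 5.66 CPM in non_mCherry and 4.48 CPM in control. Dguok, the mitochondrial deoxyguanosine kinase, had 106 CPM in mCherry, 60.1 CPM in non_mCherry and 53.8 CPM in control. Rrm2b, the p53-induced small subunit of ribonucleotide reductase, had 17.9 CPM in mCherry, 16.3 CPM in non_mCherry and 10.3 CPM in control, under 2-fold, while Rrm2 was 9.31-fold lower.

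Among 22 regulators of S phase entry, 13 were at least 2-fold lower in mCherry than in control, beside 11.8% of all tested genes. At least 2-fold higher was 1, beside 17.8%, and the median log2 fold was -1.34. Ccne1, cyclin E1, which drives entry into S phase, had 1.74 CPM in mCherry, 42.9 CPM in non_mCherry and 37.7 CPM in control, a log2 fold of -4.44 over control. E2f2, an activating E2F factor, had 1.53 CPM in mCherry, 22.8 CPM in non_mCherry and 9.75 CPM in control. Ccne2 had 3.22 CPM in mCherry, 13.3 CPM in non_mCherry and 14.0 CPM in control. Rbl2, the p130 protein that holds cell cycle genes down in resting cells, was the higher one, at 45.2 CPM in mCherry, 15.0 CPM in non_mCherry and 15.0 CPM in control. E2f5, which pairs with p130 proteins, had 10.5 CPM in mCherry, 5.38 CPM in non_mCherry and 5.78 CPM in control, and Tfdp2, a partner of E2F factors, had 56.7 CPM in mCherry, 46.1 CPM in non_mCherry and 40.3 CPM in control. Of 37 mitosis genes that reached the minimum, 20 were at least 2-fold lower in mCherry than in control, beside the same 11.8%. At least 2-fold higher were 0, beside 17.8%, and the median log2 fold was -1.05. Cdca3 (22.7 CPM in mCherry, 89.0 CPM in non_mCherry and 83.5 CPM in control), Birc5 (49.4 CPM in mCherry, 184 CPM in non_mCherry and 173 CPM in control) and Cdca8 (43.2 CPM in mCherry, 150 CPM in non_mCherry and 144 CPM in control) were lowest, and Prc1, Kif20b and Pttg1 highest, with log2 folds over control of -0.30, -0.29 and 0.29.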

How the data were processed

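The authors deposited, for each of 3 libraries, a matrix of whole UMI counts per gene and barcode, with gene and barcode lists. Per the submitters' processing notes, Cell Ranger 6.1.2 and mm10 were used, while version 3.1.0 stands in the matrices, per the file headers, and which of them made the counts is not settled. Barcodes with at least 1000 genes, at least 2000 UMIs and at most 10% mitochondrial UMIs were kept, and cells with a Scrublet score over 0.25 (scanpy 1.11.5) were left out as doublets (269 mCherry, 206 non_mCherry and 209 control cells). The score threshold was set after seeing the data.

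CPM are the UMIs of a gene over the used cells of a library, scaled to a total of 1000000. A fold is the quotient of CPM, with an exact Clopper-Pearson interval of the counts. For numbers of genes below or past a fold, and for medians, every count under 3 was set to a floor of 3 counts. Quotients printed with an interval used the plain counts. Genes with a mean of at least 5 CPM over the libraries (9314) were the background, and 2-fold was the threshold. Intervals at 95% are exact Poisson for sums and Clopper-Pearson for shares. PCR duplicates are collapsed by UMIs, and intervals cover counting error only. With 1 library per group there was no test. The quotients and intervals were run on simulated Poisson counts, the model the intervals assume. The simulated counts held no variation between cells or libraries, so this checks the computation only.

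Marker classes used the mean of standardised log values (limited to 5) of 13 lists, with 113 of 116 markers in the gene list. A cell took the class with the highest score if that was at least 0.5 and led by at least 0.25, and classes with at least 50 cells in a library were used. Cells were thinned without replacement to 4000 UMIs. The members and lists were chosen with earlier results of these data known. Full values are given for the 3 members of each role with the highest mean CPM and the 5 highest and 5 lowest folds of mCherry over control. For the other lists, the 3 highest and 3 lowest were named, except 1 gene that is not reported here. Other members named were chosen after their values were seen. Gene locations came from GENCODE on mm10 (27645 of 27998 identifiers matched), and promoters from RefSeq.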

Additional observations from a re-analysis of the deposited data

How the results depend on the processing

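Of 72 values under other settings, 58 stayed within the spread or range set for them, 14 moved and 0 reversed. Some of the 58 could not move, since a lower minimum CPM changes nothing when all 41 members already pass. The range for counts was wide and took in a fall from 33 to 23, and a count could not be labelled reversed. No paired analysis was possible because each group has 1 library. The median log2 fold of replication genes in mCherry over control (main -1.57) was -1.77 with median-of-ratios scaling, -1.37 with 5 CPM added, -1.79 as a mean over cells and -1.39 as a mean over marker classes. In mCherry over non_mCherry (main -1.48) it was -1.67, -1.32, -1.67 and -1.14 under those settings. In non_mCherry over control (main -0.05) it was -0.10 as a mean over cells, -0.22 as a mean over marker classes and -0.10 without B lineage cells, the last chosen after seeing the data. With 39 to 41 members tested, the count at least 2-fold lower stayed between 29 and 37 in mCherry over control. It stayed between 23 and 36 in mCherry over non_mCherry, both at the 2-fold threshold. The share of all tested genes was 11.8% and 10.8% with the main settings and was not computed under every other setting. The count in non_mCherry over control was 0 under each setting. The summed quotient of mCherry over control in the stem and multipotent progenitor class (main 0.488) was 0.469 with a wider lead, and in cells with mitosis transcripts (main 0.716) it was 0.570 without thinning, where control cells are deeper. The share of mCherry cells at or above the control median (main 4.89%) was 5.54% after thinning to 2000 UMIs. The causes of these shifts were not tested. Median-of-ratios scaling moved the median over all genes in mCherry over control to -0.07, where the main value was 0.14, and the share of lower calls among all calls to 55.0%, where it was 39.8%. All 41 members stayed below control there. Counting error is small for sums over a library, while values in the 61 non_mCherry cells of the stem class rest on few UMIs per gene.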

Other observations

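Histone transcripts of the Hist1h and Hist2h families gave another split of the cells, chosen after the data were seen. Many genes of these families are expressed with DNA synthesis, but they were taken by name alone, so the split is not a measure of S phase. After thinning to 4000 UMIs, 17.6% of mCherry cells had 0 UMIs of these 66 genes, against 2.13% of non_mCherry and 4.61% of control cells. At least 40 histone UMIs were found in 0.408% of mCherry cells (40 cells), 10.0% of non_mCherry cells and 2.16% of control cells. Those cells held on average 15.1 replication gene UMIs in mCherry, 28.0 in non_mCherry and 20.5 in control. Below 20 histone UMIs the mean in mCherry stayed between 4.505 and 5.58 replication gene UMIs per cell and did not climb with histone UMIs.

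The share of cells with at least 40 mitosis gene UMIs was nearly equal in mCherry (1.86%) and control (1.85%) and was 4.28% in non_mCherry, while cells with 5 to 9 made up 3.55% of mCherry, 18.6% of non_mCherry and 23.3% of control cells. Cells with at least 40 mitosis gene UMIs held a mean of 7.61 replication gene UMIs in mCherry, 18.4 in non_mCherry and 10.3 in control.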
